A study of Mus musculus with 2 samples.

Results

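Cortical thymic epithelial cells (cTECs) without a clear load of thymocyte RNA made up 407 of the 8303 sorted thymic epithelial cells (TECs) kept here, of which 114 were control and 293 irradiated cells. A cell was counted among these cTECs when Psmb11 and Prss16 together gave at least 15 unique molecular identifiers (UMIs, each marking a captured RNA molecule) per 10000 UMIs of that cell. In addition, the thymocyte genes Cd3d, Cd3e, Cd3g, Cd8b1, Ptcra and Rag1 together had to give under 5 per 10000. Kept cells had more than 2000 and fewer than 7500 detected genes and under 15% mitochondrial UMIs. The levels of these 8 genes therefore chose the cells and are given below only as a description.

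TECs were EpCAM+, CD45- and TER119- cells sorted from thymi of female C57BL/6 mice that were 9 weeks old by the labels. Each of the 2 libraries held TECs pooled from 3 mice, so neither library has a replicate and no test between conditions was possible. The irradiated mice had received a single sublethal dose of 5.5 Gy of gamma rays at 7 weeks of age and were analyzed 15 days later, and the control mice were age-matched and had not been irradiated. The labels give an age of 4 weeks in the protocol text and name version 2 of the droplet chemistry, where the study's methods name version 3.

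The assignment of the libraries to conditions differs between the sources. The file names give the assignment used here, with 3233 kept control and 5070 kept irradiated cells, and the sample labels give the opposite one. The cell numbers that the study states for each condition also give the assignment used here. Every direction between libraries below would reverse under the sample labels.

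The cortex of the thymus is where immature thymocytes first rearrange and test their antigen receptors, and cTECs form its epithelial meshwork. cTECs recruit and sustain progenitors with chemokines, Notch ligand and cytokines. They also present peptides cut by their own proteasome and proteases on MHC molecules, which drives positive selection. Some cTECs enclose living thymocytes as thymic nurse cells, and droplets with such complexes carry RNA of both cell types.

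The cTECs were well covered. The control cTECs held 2177058 UMIs in all with a median of 17980 per cell, from 4555 to 43326, and the irradiated cTECs held 5098187 with a median of 15795, from 4004 to 46239. A median of 4699.5 genes was detected per control cTEC and 4547 per irradiated cTEC, and the median mitochondrial share was 5.47% and 4.89%. The other kept cells under the Psmb11 and Prss16 limit, 3095 control and 4706 irradiated, had lower medians of 13288 and 12716.5 UMIs. The libraries shared 17 barcodes, none of them among the cTECs. Levels are summed UMIs of a gene per 10000 summed UMIs of the cells, and they count 3' ends, so they do not scale with transcript length. Ranges are exact Poisson 95% intervals for levels and exact Clopper-Pearson 95% intervals for shares, and all cover counting error only.

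The limits cut through a continuum. The sum of Psmb11 and Prss16 had a median of 39.3 per 10000 in control and 54.0 in irradiated cTECs, with highest values of 179 and 213. Just inside the limit of 15, the lowest cTECs had 15.3 and 15.1, and just outside it the highest other cells had 14.1 and 14.3. Between 15 and 20 lay 20 control and 42 irradiated cTECs, and between 10 and 15 lay 22 control and 32 irradiated cells that were left out. For the 6 thymocyte genes, the highest value inside was 4.85 control and 4.74 irradiated, and the lowest value outside was 5.41 and 5.64. No UMI of these genes was found in 76.3% of control and 88.1% of irradiated cTECs. Barcodes that passed both UMI limits but not the quality limits numbered 51 control and 123 irradiated, with medians of only 1934 and 1429 UMIs, and were not counted.

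Cortical markers that the limits did not use were also far above their level in other kept cells. Ccl25, the chemokine that draws CCR9-bearing progenitors, was at 46.9 per 10000 in control and 57.5 in irradiated cTECs, against 2.92 and 2.16 in other kept cells. Ctsl, the protease cathepsin L that trims MHC class II ligands, was at 134 and 151, against 10.3 and 11.9. Cxcl12, the ligand of CXCR4, was at 21.3 and 18.1, against 1.15 and 1.08. Foxn1, the transcription factor on which the thymic epithelial program depends, stood less apart at 1.59 and 1.67, against 0.609 and 0.621. The genes used by the limits, Psmb11 for the thymoproteasome subunit beta-5t and Prss16 for the thymus-specific serine protease, were at 10.2 and 11.1 and at 47.3 and 59.9. Epcam, the epithelial sorting marker, was at 3.33 and 3.65 per 10000, below the 7.59 and 8.67 of other kept cells. It was found in 107 of 114 and 284 of 293 cTECs.

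Tbata, named for its expression in thymus, brain and testis, was at 88.7 and 121 per 10000 in cTECs and at 6.16 and 5.61 in other kept cells. Ly75, the endocytic receptor CD205 used to recognize cTECs, was at 7.34 and 8.09, against 0.418 and 0.456. Cd83, which stabilizes MHC class II at the cTEC surface, was at 2.92 and 3.01, against 0.132 and 0.113. Enpep, the aminopeptidase bound by the Ly51 antibody, was at 1.48 and 1.39, against 0.101 and 0.0879. Of all 5542 genes with at least 200 UMIs in the cTECs, 143 genes, or 2.58%, were at least 4-fold higher in cTECs than in other kept cells in each library, and 36, or 0.65%, were at least 4-fold lower. Besides Psmb11 and Prss16, whose excess the limit fixed, that share held 3 of the 4 other marker genes, all but Foxn1, and 9 of 12 further cortical genes, all but Il7, Krt8 and Ackr4. Since the cells were chosen by their RNA, these counts describe the cTECs and were not tested.

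Psmb11 and Ccl25 are shown with the sequence before their start because Foxn1 is known to act at cortical genes through the core GACGC. Psmb11 (ENSMUSG00000072423) is annotated by GENCODE at chr14:54621433-54629556 of GRCm38 on the plus strand, and Ccl25 (ENSMUSG00000023235) at chr8:4325210-4360020 on the plus strand. In the 250 bases before the RefSeq start of Psmb11, at chr14:54625060-54625309, the core was found at 2 positions, both on the minus strand, where it reads GCGTC. In the 250 bases before the first RefSeq start of Ccl25, at chr8:4324960-4325209, it was found at 1 position on the plus strand, and before a second start, at chr8:4349338-4349587, it was not found. The windows are from RefSeq on GRCm38.p6, run 5' to 3' on the plus strand, and carry the core in capitals.
Psmb11: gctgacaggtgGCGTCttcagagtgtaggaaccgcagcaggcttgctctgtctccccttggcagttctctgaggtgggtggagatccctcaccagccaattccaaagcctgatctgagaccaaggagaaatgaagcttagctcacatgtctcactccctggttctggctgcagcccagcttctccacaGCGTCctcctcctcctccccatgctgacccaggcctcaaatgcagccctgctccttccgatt
Ccl25, first start: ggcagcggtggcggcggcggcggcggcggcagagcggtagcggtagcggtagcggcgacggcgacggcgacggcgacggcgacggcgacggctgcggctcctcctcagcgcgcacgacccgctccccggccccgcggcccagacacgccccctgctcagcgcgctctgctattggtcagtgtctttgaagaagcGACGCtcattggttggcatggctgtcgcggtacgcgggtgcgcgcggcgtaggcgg
Ccl25, second start: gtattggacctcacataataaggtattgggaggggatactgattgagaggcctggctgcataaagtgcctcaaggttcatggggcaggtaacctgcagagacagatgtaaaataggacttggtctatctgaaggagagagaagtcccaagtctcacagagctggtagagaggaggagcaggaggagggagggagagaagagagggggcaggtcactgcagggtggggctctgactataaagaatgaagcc
Of 32851 such windows of mouse genes, 22.6% hold the core on either strand. The window of Dll4 holds none, and Prss16 had no entry. A match is a description of letters and not a site of binding.

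**Figure D1:**
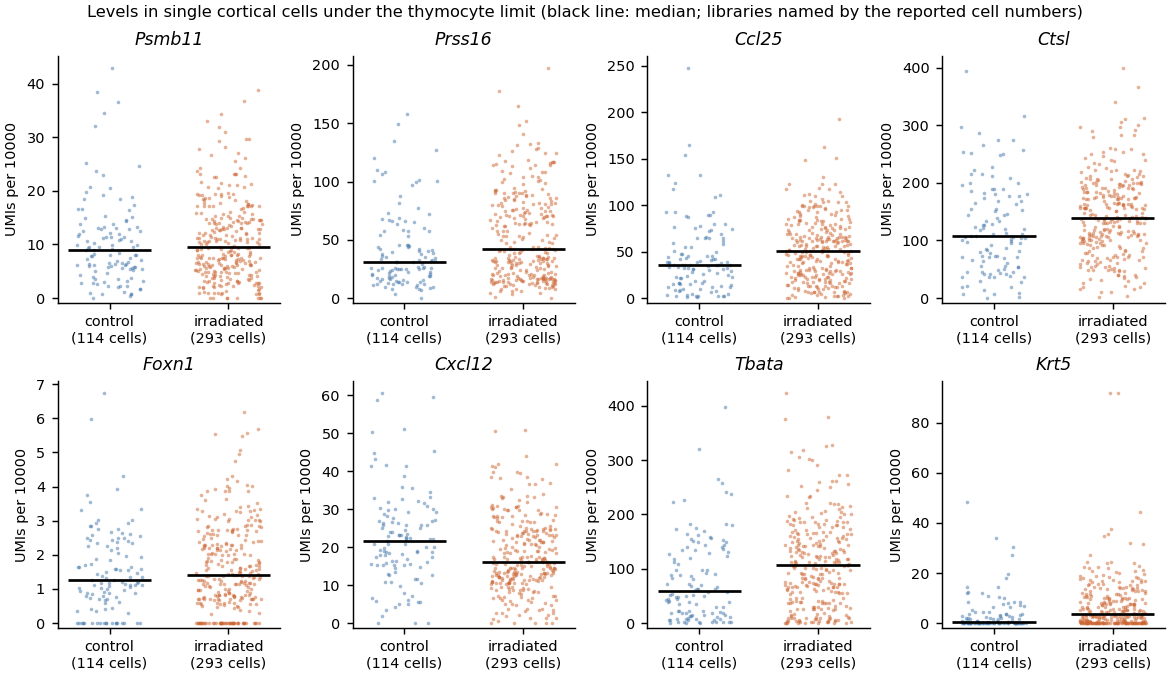
Level of 8 genes in every single cTEC (UMIs per 10000 UMIs of the cell), 114 control and 293 irradiated cells as points and the median over cells as a black line. Ccl25 had medians of 35.5 and 50.4, Tbata of 59.8 and 106 and Krt5 of 0.377 and 3.46, and for each gene the cells of the libraries overlap widely.

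Leaving out Psmb11 and Prss16, the 20 genes that stood highest over other kept cells, by the smaller of the libraries' log2 ratios among 1941 genes with at least 200 UMIs in the cTECs of each library, all had log2 ratios of at least 3.45. Of these, 7 were in the cortical lists: Cd83, Ly75, Cxcl12, Ccl25, Enpep, Tbata and Ctsl. Inmt, which methylates small amines, had the largest log2 ratios of these 20, 6.12 for control and 5.65 for irradiated cells, but only 26 and 66 cTECs carried a UMI of it. Abat, the enzyme that breaks down the transmitter GABA, had 4.18 and 4.21, and Syngr1, a protein of synaptic vesicles, had 4.51 and 4.20. Fxyd2, a regulatory subunit of the sodium pump, was abundant at 19.3 and 24.1 per 10000 with log2 ratios of 3.79 and 3.94. Isg20, an interferon-induced exonuclease, was at 6.03 and 6.88 per 10000, against 0.427 and 0.306 in other kept cells. The rest were the cadherin gene Cdh4, the proline hydroxylase gene P4ha3, the amino acid transporter gene Slc36a1, Fgf14, the small GTPase gene Diras2, the noncoding Snhg11, Pithd1 and Dusp28. These were seen in most cTECs, from 70 of 114 control cells for Dusp28 to 101 for Pithd1 and for Diras2.

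cTECs at or over the thymocyte limit, 24 control and 71 irradiated cells over the same Psmb11 and Prss16 limit, were deeper, with medians of 33067 and 26270 UMIs. Of cortical genes that the limits did not use, Ccl25 was at 69.98 and 62.8 per 10000 in them, against 46.9 and 57.5 in cTECs under the limit. Ctsl was at 164 and 147, against 134 and 151, and Cxcl12 at 20.6 and 19.96, against 21.3 and 18.1. Krt5 was lower in them, at 1.61 and 2.36 against 3.68 and 7.03, and so was Ackr4, at 0.854 and 0.414 against 1.76 and 0.777. The summed list of 20 thymocyte genes was at 63.8 and 61.2 in them by choice. It was at 1.79 and 2.003 in cTECs under the limit, which were thus not free of thymocyte RNA. Other kept cells, at 2.11 and 2.17, were not held to the thymocyte limit, so these levels are only a description. The one gene of the list with at least 200 UMIs in cTECs under the limit was Trbc2, at 0.404 and 0.645 (log2 ratio 0.67). Trbc2 is a T cell receptor constant region that the limits did not use. With the thymocyte genes held under 2 per 10000 the log2 ratio of Trbc2 was 0.16.

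The cTECs were not uniform. Of 1229 genes with a mean of at least 0.5 UMIs per cell in each library after every cell was thinned at random to 4000 UMIs, the median variance over mean was 1.19 in control and 1.16 in irradiated cTECs, where random sampling alone gives a value near 1. It was 2 or more in each library for 112 genes. The 10 widest were Gm42418, Ccl21a, Fabp5, Tbata, Cxcl10, Wfdc18, Malat1, Ctsl, Fth1 and Prss16. The variance of Tbata was 30.7 and 24.4 times its mean, and that of Ctsl 22.5 and 15.1 times. Ccl21a, the medullary chemokine that draws mature thymocytes by CCR7, had a variance of 49.7 and 29.5 times its mean. Without thinning, no UMI of Ccl21a was found in 51.8% of control and 36.2% of irradiated cTECs, and it reached 290 and 224 per 10000 in single cells. Wfdc18, an abundant secreted protein of some medullary cells, had no UMI in 77.2% and 73.4% of cTECs without thinning.

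Part of this spread followed the sum of Psmb11 and Prss16 itself. The cTECs were set out in 3 ranges of that sum, with 37, 42 and 35 control cells and 80, 76 and 137 irradiated cells at 15 to 30, 30 to 60 and 60 or more per 10000. Tbata was at 27.1, 77.8 and 144 per 10000 along these ranges in control and at 57.1, 115 and 149 in irradiated cTECs. Ccl25 was at 26.05, 35.3 and 74.1 and at 28.8, 50.1 and 72.0. Ly75, Cd83, Dll4, Isg20 and Fxyd2 were also higher in each higher range of each library, and Cd83 went from 0.640 to 5.601 in control and from 1.13 to 4.18 in irradiated cTECs. Ackr4, a scavenging receptor for CCL25, CCL19 and CCL21, ran the other way, from 2.97 to 1.11 and from 1.53 to 0.4998. Krt14, a keratin of medullary and progenitor cells, went from 3.23 to 0.878 and from 3.38 to 1.14, and Fos from 12.7 to 3.12 and from 5.06 to 1.42. Il7 was at 2.45, 2.67 and 2.02 and at 3.75, 2.80 and 2.34, and Slc46a2, the thymic stromal cotransporter gene, at 3.87, 3.45 and 3.87 and at 4.20, 4.11 and 3.88. The median UMIs per cell moved with the ranges, from 13379 to 23002 in control and from 12472 to 19285 in irradiated cTECs, and its part in these gradients was not tested.

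**Figure D2:**
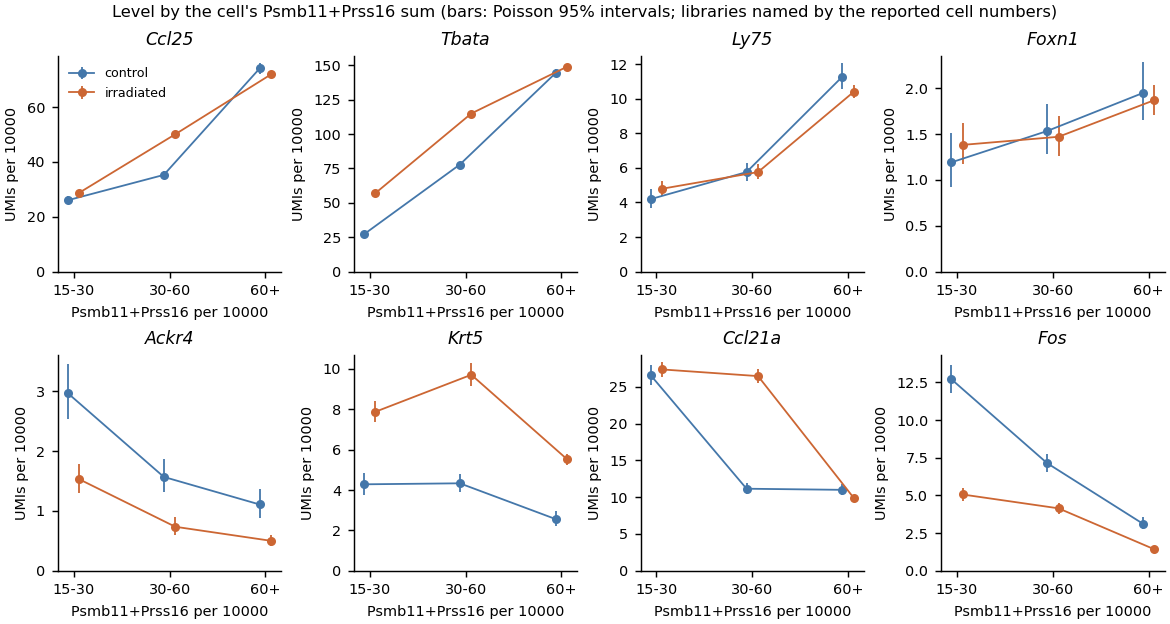
Summed UMIs per 10000 of 8 genes in cTECs set out by their sum of Psmb11 and Prss16 (15 to 30, 30 to 60, 60 or more), with Poisson 95% intervals, for both libraries. Ccl25, Tbata and Ly75 are higher in the cells with the highest sum, Ackr4, Krt5 and Fos are lowest there, and Krt5 is higher and Fos lower in the irradiated library in every range.

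The cTECs were a larger share of the irradiated TECs. They were 3.53% of kept control cells (2.92 to 4.22) and 5.78% of kept irradiated cells (5.15 to 6.46), and the log2 ratio was 0.71 (0.29 to 1.15). cTECs at or over the thymocyte limit were 0.742% and 1.40%, with a log2 ratio of 0.92 (-0.01 to 1.89). Among all cells over the Psmb11 and Prss16 limit, 17.4% of control and 19.5% of irradiated cells were at or over the thymocyte limit. These are shares of sorted cells, so more cTECs and fewer medullary cells cannot be told apart, and under the sample labels the larger share is that of the control mice. The cTECs with a sum of 60 or more were 30.7% of control cTECs (22.4 to 40.0) and 46.8% of irradiated cTECs (40.9 to 52.6).

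Most genes of the cTECs differed little between the libraries. The median log2 ratio of irradiated over control levels was 0.00 over the 5542 genes with at least 200 UMIs in the cTECs, and the 1st and 99th percentiles were -0.78 and 0.63. By the rule of 1.5-fold or more, 77 genes, or 1.39%, were higher and 108, or 1.95%, were lower in irradiated cTECs, 3.34% together. At 2-fold or more, 16 genes, or 0.289%, were higher and 32, or 0.577%, were lower, 0.866% together. Of the same 5542 genes in other kept cells, 5, or 0.0902%, were higher and 54, or 0.974%, were lower by 1.5-fold or more. Of the 108 genes lower in irradiated cTECs, 30 were also lower in other kept cells, and of the 77 higher genes 3 were also higher. A single cell held over 25% of the UMIs, in the library with the higher level, for 4 of the 77 and 13 of the 108 genes. Without the cell with the most UMIs of each gene in each library, a setting chosen after seeing the data, 106 genes were higher and 75 lower. That setting takes 1 of 114 control but 1 of 293 irradiated cells, which by its construction moves ratios upward.

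Among cortical genes, Psmb11 and Prss16 chose the cells, so their ratios are only a description. None of the other 4 marker genes and 1 of the 12 further cortical genes differed by 1.5-fold or more, where 3.34% of all genes did, and these counts are near that share. Psmb11, at 10.2 (9.77 to 10.6) and 11.1 (10.9 to 11.4), had a log2 ratio of 0.13 (0.03 to 0.23). Foxn1, at 1.59 (1.43 to 1.77) and 1.67 (1.56 to 1.78), had 0.07 (-0.18 to 0.32), and Cxcl12 had -0.24 (-0.31 to -0.17). Prss16, Ccl25 and Tbata were somewhat higher in irradiated cTECs, with log2 ratios of 0.34, 0.29 and 0.45. From the lowest to the highest range of the sum of Psmb11 and Prss16, the log2 ratio of Ccl25 was 0.15, 0.51 and -0.04 and that of Tbata was 1.07, 0.56 and 0.05. Over all ranges together, Ly75, Cd83, Pax1, Enpep, Krt8, Krt18 and Slc46a2 lay between -0.10 and 0.14. For some of them the ranges differed in direction. Cd83 was at 0.64 per 10000 in control and 1.13 in irradiated cTECs in the lowest range. In the highest range it was at 5.601 and 4.18. Enpep was at 0.995 and 1.19 in the lowest range and at 2.202 and 1.62 in the highest. Slc46a2 was not lower in irradiated cTECs in any range. The part of the mix of ranges in the pooled ratios was not tested.

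Ackr4 was the one gene of these lists that differed by 1.5-fold. It gave 1.76 (1.59 to 1.95) UMIs per 10000 for control cTECs and 0.777 (0.702 to 0.857) for irradiated cTECs, and its log2 ratio was -1.18 (-1.47 to -0.89). It was lower in irradiated cTECs in each range of the sum, and also in other kept cells, at 0.438 and 0.247 with a log2 ratio of -0.83. After thinning to 4000 UMIs, 41.2% of control cTECs (32.1 to 50.8) and 23.2% of irradiated cTECs (18.5 to 28.5) had a UMI of Ackr4, and without thinning 71.1% and 47.4%. In tuft-like cells, a medullary cell type picked by Avil, Trpm5 and Sh2d6 and taken as a background, the thinned shares were 26.7% and 28.05%. The share of irradiated cTECs is not above that of this epithelial type. The level in irradiated cTECs, 0.777, was still above the 0.247 of other kept cells. Whether tuft-like cells make Ackr4 themselves was not tested, so their share cannot serve as a floor for this gene.

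**Figure D3:**
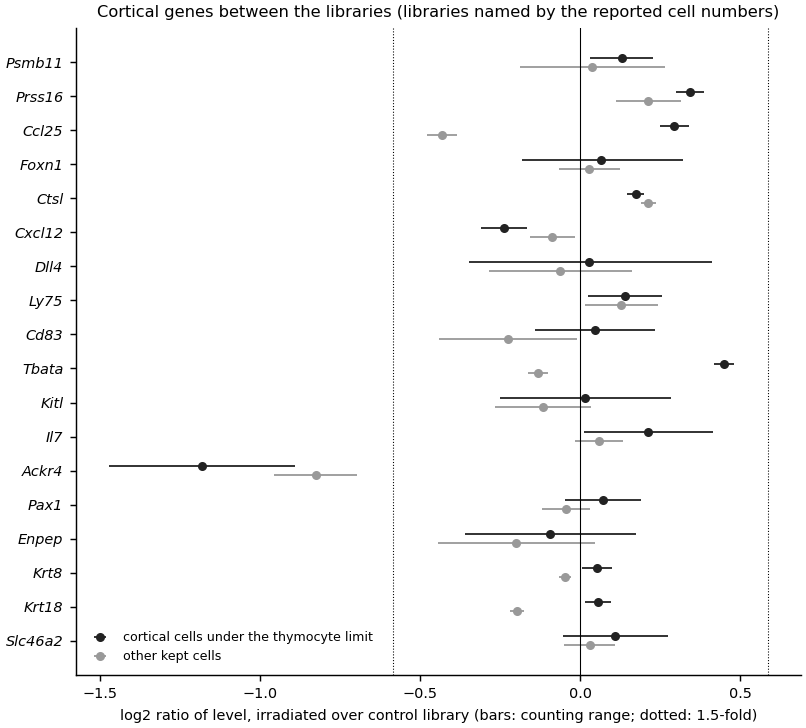
Log2 ratio of irradiated over control level for 18 cortical genes in cTECs (black) and in other kept cells (gray), with ranges that combine the opposite ends of the Poisson 95% intervals and dotted lines at 1.5-fold. Ackr4 lies beyond the dotted line in both, at -1.18 and -0.83, and Ccl25 and Tbata lie above 0 in cTECs and below 0 in other kept cells.

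Of 15 niche genes, whose products sustain thymocytes, 10 had enough UMIs and none differed by 1.5-fold or more, where 3.34% of all genes did. A count of 0 among 10 is near that share. The list had a median log2 ratio of 0.02 and -0.10 in other kept cells. Dll4, the Notch ligand that commits progenitors to the T lineage, was at 0.721 and 0.736 per 10000. Kitl, which encodes stem cell factor, was at 1.43 and 1.44, and Il7, the cytokine for early thymocyte survival, at 2.38 and 2.75 with a log2 ratio of 0.21 (0.01 to 0.41). In the lowest range of the sum of Psmb11 and Prss16, Il7 was at 2.45 and 3.75. With a sum of at least 30 its log2 ratio was 0.075. Il15 had the largest ratio of the list, 0.45 (-0.06 to 0.98). After thinning, 19.3% and 23.5% of cTECs had a UMI of Dll4, 40.4% and 44.7% one of Kitl and 59.6% and 59.0% one of Il7, where tuft-like cells had 0.606% and 1.22%, 0% and 1.22%, and 12.1% and 13.4%. The 0% is 0 of 165 control tuft-like cells at the thinned depth, with an upper Clopper-Pearson end of 2.21% for cells with a UMI. Without thinning 1.21% of these cells had a UMI of Kitl.

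For antigen processing and presentation, counts were near the 3.34% of all genes that differed by 1.5-fold. None of 20 genes of the MHC class I and proteasome list differed by 1.5-fold, with a median log2 ratio of 0.07. This list includes Psmb11, which helped to choose the cells, so its count and median are not independent of that choice. H2-K1, a classical class I heavy chain, was at 41.1 and 50.6 (0.30), and Tap1, of the peptide transporter, at 1.52 and 1.88 (0.31), with log2 ratios in parentheses. Psmb5, the constitutive subunit in whose place beta-5t is built in, was at 2.47 and 2.86, and Psmb8, its immunoproteasome counterpart, at 1.75 and 1.51. Of 17 genes of the MHC class II list, 1 was lower by 1.5-fold, with a median of -0.05. The same limit holds here, since the class II list includes Prss16, which also helped to choose the cells. Cd74, the invariant chain, was at 132 and 120, and H2-Aa at 48.8 and 47.0. The lower gene was the protease gene Ctsh, at 0.721 and 0.208, and 70.1% of its control UMIs came from 1 cell, without which and its irradiated counterpart the log2 ratio was -0.43 in place of -1.79. None of 15 autophagy genes differed by 1.5-fold, with a median of 0.10. Map1lc3a, an LC3 protein of the autophagosome membrane, had 0.47 (0.31 to 0.63).

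Most immediate early genes, and a minority of heat shock genes, were lower in irradiated cTECs. Of 24 stress genes with enough UMIs, 16 were lower by 1.5-fold or more, 0 were higher, and the median log2 ratio was -0.78, where 1.39% of all genes were higher and 1.95% lower. Of its 9 heat shock genes 3 passed, Hspa1b, Hsph1 and Dnajb1, and of the other 15 genes 13 passed. Their summed level was 118 per 10000 in control and 78.9 in irradiated cTECs. The median of the stress list was -0.89, -0.47 and -0.39 from the lowest to the highest range of the sum of Psmb11 and Prss16. Fos, a subunit of AP-1, was at 7.13 and 2.85 (-1.32), Egr1, an immediate early transcription factor, at 4.36 and 1.58 (-1.46), Atf3 at 2.15 and 0.771 (-1.48) and Dusp1, a phosphatase of MAP kinases, at 0.744 and 0.255 (-1.54), with log2 ratios in parentheses. The other 6 heat shock genes had log2 ratios from -0.37 to 0.01, with Hspa8 at 16.04 and 13.98 (-0.20) and Hsp90aa1 at 9.78 and 7.58 (-0.37). In other kept cells the same list had a median of -0.85 with 18 of 24 genes lower by 1.5-fold, and in cTECs at or over the thymocyte limit it summed to 88.4 and 62.9. Tissue digestion is known to raise these genes, and handling of a library and condition cannot be told apart with 1 library each. After thinning, 50% of control and 30.7% of irradiated cTECs had a UMI of Fos, and 52.6% and 28.3% one of Egr1.

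Genes that p53 is known to switch on differed in both directions. Of 15 with enough UMIs, 3 were higher and 3 were lower by 1.5-fold or more, where 1.39% and 1.95% of all genes were. The median log2 ratio was 0.39 in cTECs and 0.15 in other kept cells, but the summed list was at 22.8 and 23.1 per 10000, a log2 ratio of 0.02 (-0.04 to 0.09). The median was 0.020, 0.45 and 0.25 from the lowest to the highest range of the sum of Psmb11 and Prss16, and 0.19 over genes with at least 1000 UMIs. Cdkn1a (ENSMUSG00000023067, chr17:29090976-29100727 of GRCm38, plus strand), the cyclin-dependent kinase inhibitor p21, was at 0.629 (0.528 to 0.744) in control and 1.55 (1.44 to 1.66) in irradiated cTECs, a log2 ratio of 1.30 (0.96 to 1.65). In other kept cells it was at 1.67 and 2.30 (0.46), and in cTECs at or over the thymocyte limit at 0.892 and 0.922. A single cell held 28.5% of the control UMIs of Cdkn1a, and without the top cell of each library the log2 ratio was 1.72. After thinning, 7.02% of control cTECs (3.08 to 13.4) and 30.03% of irradiated cTECs (24.8 to 35.6) had a UMI of it, below the 65.5% and 69.5% of tuft-like cells. The other higher genes were Zmat3, with 0.74 (0.10 to 1.44) but -0.0067 in the middle range of that sum, and Polk, a translesion polymerase, with 0.79 (0.13 to 1.51). Bax, Ccng1 and Phlda3 had 0.43, 0.40 and 0.33. The lower genes were Btg2 (-0.88), Gadd45a (-0.76) and Sesn1 (-0.67). Btg2, which is also an immediate early gene, had -0.91 in other kept cells, and Sesn1 had -0.49 in cells with a sum of Psmb11 and Prss16 of at least 30.

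**Figure D4:**
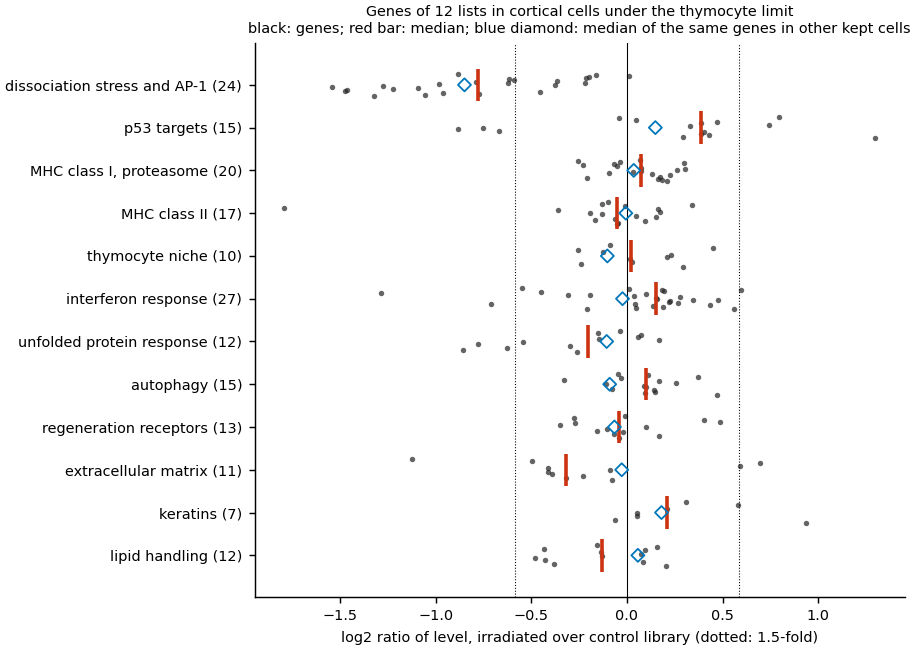
Log2 ratio of irradiated over control level in cTECs for each gene with at least 200 UMIs in 12 gene lists (black points, number of genes in parentheses), the list median (red bar) and the median of the same genes in other kept cells (blue diamond). The stress list has medians of -0.78 in cTECs and -0.85 in other kept cells, and the p53 list has 0.39 and 0.15.

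Of 6 genes of the medullary epithelium with enough UMIs, 2 were higher by 1.5-fold in irradiated cTECs, among them Krt5, where 1.39% of all genes were. The list summed to 22.8 and 29.2 per 10000, against 68.8 and 75.4 in other kept cells. Krt5 (ENSMUSG00000061527), a basal keratin, was at 3.68 (3.43 to 3.94) and 7.03 (6.80 to 7.27), so that its log2 ratio was 0.93 (0.79 to 1.08), against 0.31 in other kept cells. It was higher in irradiated cTECs in each range of the sum of Psmb11 and Prss16, and 36.8% of control (27.99 to 46.4) and 61.4% of irradiated cTECs (55.6 to 67.0) had a UMI after thinning, against 15.8% and 18.9% of tuft-like cells. Krt17 was at 17.9 and 26.7 (0.58), while Krt14, the usual partner of Krt5, was at 2.08 and 1.997 (-0.06). Krt8 and Krt18, the keratins of simple epithelium, were at 45.0 and 46.6 and at 60.04 and 62.3. Ccl21a was at 15.1 and 17.6 (0.22), with 21.1% of the control UMIs in 1 cell. From the lowest to the highest range of that sum Ccl21a was at 26.6, 11.2 and 10.998 in control and at 27.4, 26.5 and 9.87 in irradiated cTECs, so it was higher by 1.5-fold in the middle range and not in the others. After thinning, 31.6% and 49.5% of cTECs had a UMI of Ccl21a, against 23.03% and 26.2% of tuft-like cells. Aire and Fezf2, the regulators of medullary self-antigens, were at 0.285 and 0.345 and at 0.588 and 0.755, against 4.66 and 4.97 and 3.75 and 3.69 in other kept cells. A UMI of Aire was found after thinning in 5.26% (1.96 to 11.1) and 4.44% (2.38 to 7.47) of cTECs, which is not above the 6.67% (3.37 to 11.6) and 12.2% (7.61 to 18.2) of tuft-like cells. A single cell held 24.2% of its control and 31.25% of its irradiated UMIs in cTECs. No gene of the list was at 0, and the part of droplets with a medullary cell in these values was not tested. Without the cTECs in the highest 10% of total UMIs, Krt5 had a log2 ratio of 0.96.

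**Figure D5:**
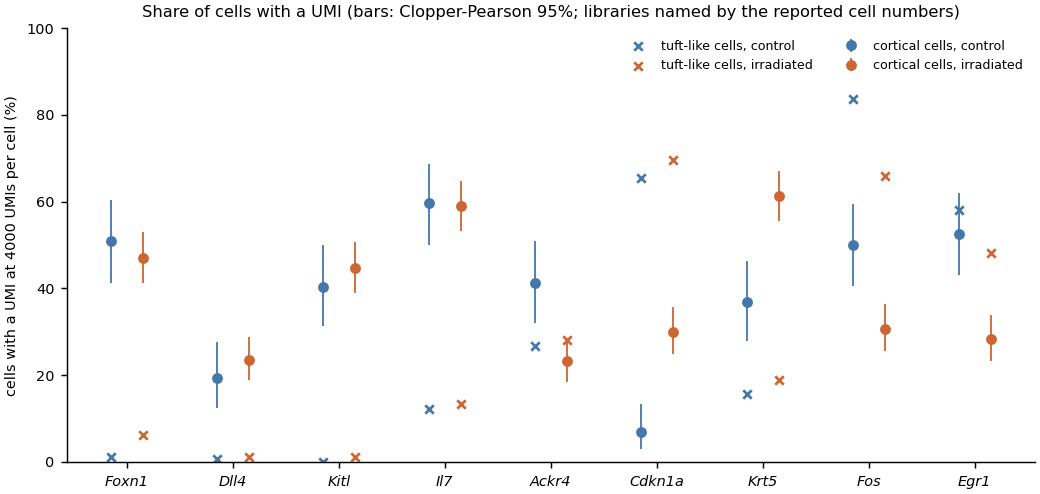
Share of cTECs with a UMI of 9 genes after thinning each cell to 4000 UMIs (circles with Clopper-Pearson 95% intervals) and the share in tuft-like cells (crosses), for both libraries. Foxn1, Dll4, Kitl and Il7 are close between the libraries and far above tuft-like cells, whereas Ackr4, Fos and Egr1 are lower and Cdkn1a and Krt5 higher in irradiated cTECs.

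The counts of other signaling and structural groups stand beside the 1.39% of all genes that were higher and the 1.95% that were lower. Of 4 genes of BMP and TGF-beta feedback with enough UMIs, 1 was lower by 1.5-fold and all 4 were below 0, with a median of -0.46. Id3, an inhibitor of bHLH factors, was at 1.90 and 0.994 (-0.94), and Id2 at 0.992 and 0.706 (-0.49), which turned to 0.12 in cells with a sum of Psmb11 and Prss16 of at least 30. Of 13 receptors of regeneration signals none differed by 1.5-fold, with Igf1r at 1.53 and 2.03 (0.40) and Lrp6 at 1.90 and 1.89 (-0.01). Of 8 transcription factors of thymic epithelium none differed by 1.5-fold, with Pax1 at 7.15 and 7.51 and Six4 at 0.363 and 0.524 (0.52). Of 12 genes of the unfolded protein response 3 were lower, namely Ddit3 (-0.86), Herpud1 (-0.78) and Atf4 (-0.63), while the chaperone Hspa5 had -0.26. Herpud1 had -0.42 without the highest 10% of cells by total UMIs, and Atf4 had -0.47 with the sum of at least 30. Of 11 matrix genes, Timp3 was lower at 2.76 and 1.27 (-1.13), and Col6a1 and Fn1 were higher, with 0.70 and 0.59, while 9 of the 11 were below 0 and the median was -0.32. Col6a1 had 0.28 with the sum of at least 30, and Fn1 had 0.56 with thymocyte genes under 10 per 10000. None of 12 lipid genes differed by 1.5-fold, and Fabp5, a fatty acid binding protein, was at 125 and 133, against 43.3 and 56.4 in other kept cells. None of the 13 mitochondrially encoded genes did either, with mt-Co3 at 110 and 106.

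Of 27 interferon response genes with enough UMIs, 20 were above 0 and 7 below, with a median log2 ratio of 0.15 and -0.02 in other kept cells. By 1.5-fold, 1 was higher, Trim30a with 0.60, and 2 were lower, where 1.39% and 1.95% of all genes were. Trim30a had 0.52 with a limit of 10 for the sum of Psmb11 and Prss16. Iigp1, an immunity-related GTPase, was at 6.23 and 2.55 (-1.29) in cTECs and at 3.49 and 2.51 (-0.48) in other kept cells. Irf1 was at 2.58 and 1.58 (-0.71), and Cxcl10 at 7.87 and 5.38 (-0.55) with 16.6% of its irradiated UMIs in 1 cell. Isg20 was at 6.03 and 6.88 (0.19) in cTECs and had -0.48 in other kept cells.

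cTECs showed few signs of division. At least 2 UMIs over Mki67, Top2a, Cdk1, Ccnb1, Aurkb and Birc5 were found, after thinning, in 0.877% of control cTECs (0.0222 to 4.79) and 2.39% of irradiated cTECs (0.966 to 4.86). In other kept cells the shares were 8.01% and 14.2%. In cTECs at or over the thymocyte limit they were 29.2% (12.6 to 51.1), or 7 of 24 cells, and 16.9% (9.05 to 27.7), or 12 of 71. Those droplets also hold thymocyte RNA, and whether these UMIs came from the cTEC or the thymocyte was not tested. In cTECs under the thymocyte limit the S phase list summed to 4.25 and 4.43 per 10000. The G2 and mitosis list summed to 5.11 and 6.85 in them, against 16.5 and 23.5 in other kept cells. Of each list 4 genes had enough UMIs and none differed by 1.5-fold, with Pcna at 0.491 and 0.498 and Tubb4b at 2.26 and 2.45.

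Among all genes the largest differences were often carried by a few cells. The highest ratios were those of Ighm and Igkc, immunoglobulin chains of B lineage cells, with log2 ratios of 4.22 and 3.19. They were found in 3 and 15 cells and in 7 and 17 cells, and 1 irradiated cell held 61.2% of the Ighm and 50.4% of the Igkc UMIs. Igkc was also higher in other kept cells, at 0.695 and 4.93 (2.83). Acta2, smooth muscle actin, had 2.31 in 17 and 33 cells, and 0.26 with a limit of 10 for the sum of Psmb11 and Prss16. The next were Ddit4l, Cdkn1a, Stmn1, Nav1, Grp, 1500009L16Rik and the copper transporter gene Atp7b, with 1.39 to 1.04. With that limit of 10, Stmn1 had 0.56. Nav1 was found in 27 of 114 and 132 of 293 cTECs, with no more than 9.43% of its UMIs in 1 cell, and had 0.00 in other kept cells. Atp7b was at 0.202 and 0.420 and near absent from other kept cells, at 0.0156 and 0.0210.

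Several of the lowest ratios came from single cells. Psors1c2 (-3.14), Cd52 (-2.27), Reg3g (-2.24), Fabp4 (-1.94), Ctsh (-1.79) and Fgf21 (-1.59) each had from 43.7% to 70.1% of their control UMIs in 1 cell. Rnase4 (-1.69), a secreted ribonuclease, was spread over 77 control and 105 irradiated cTECs, at 1.40 and 0.434, and was lower in other kept cells as well (-1.03). Selenbp1 (-1.55) and Serpinf1 (-1.52), the latter encoding the secreted factor PEDF, were likewise spread, over 57 and 67 and over 52 and 48 cells, and Dusp1 was the remaining gene. Dusp28 was the one gene among the 20 highest over other kept cells that differed by 1.5-fold, at 1.08 and 1.83 (0.76), and it had -0.27 in the lowest range of the sum of Psmb11 and Prss16.

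Markers of other cell types were low, with the exception of the fibroblast gene Dcn. The 6 endothelial genes summed to 0.00919 and 0.0157 per 10000, led by Pecam1, with Cdh5, Kdr, Tie1 and Emcn at 0 in both libraries and Egfl7 at 0 in control. The 11 myeloid genes summed to 0.616 and 0.416, led by Lyz2, with Itgax and Xcr1 at 0. The 6 erythroid genes summed to 0.198 and 0.0118, led by Hbb-bs in 1 control cell, with Hba-a1 and Hba-a2 at 0 in control and Hbb-bt and Alas2 at 0 in irradiated cTECs. The 5 B cell genes summed to 0.0505 and 0.392, led by Ighm, with Ms4a1 at 0 in both and Cd79a at 0 in control. The 9 genes of tuft cells, which are medullary epithelial cells, summed to 0.845 and 0.435, led by Dclk1, with Gnat3 at 0 in control. The 7 fibroblast genes summed to 2.69 and 1.15, nearly all of it Dcn, the matrix proteoglycan decorin, with Pdgfra at 0 in both libraries and Col1a1 at 0 in control. Dcn was at 2.64 and 1.12 (-1.24) in 76 and 138 cTECs and at 2.74 and 1.49 (-0.88) in other kept cells, and its level in control cTECs was above that of Foxn1 in UMIs, a scale that counts 3' ends. After thinning, 43.9% and 25.3% of cTECs had a UMI of Dcn, against 6.67% and 1.83% of tuft-like cells. The part of these cells in the differences above was not tested.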

How the data were processed

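The 2 single-cell RNA-seq libraries of sorted TECs, 1 per condition, were used. The authors trimmed reads with fastp, aligned them to mm10 and counted UMIs with Cell Ranger (5.0.1 in the file headers, 5.1 in the submitters' processing notes), and deposited raw counts of UMIs for called cells, without normalization. The libraries held 58185309 and 82201657 UMIs in 4937 and 7167 barcodes. From these counts, cells were kept by the limits in the text, with genes counted when found in at least 5 barcodes, and UMIs of the 78 rows that share a symbol with another row were summed per symbol. No doublet caller was run. The cap on detected genes and, for doublets with thymocytes, the thymocyte limit are the only guards against doublets. Levels were summed UMIs per 10000. Log2 ratios used 0.5 added UMIs, and their ranges combine opposite ends of Poisson 95% intervals. Genes entered with at least 200 UMIs in cTECs of both libraries together. Shares of cells with a UMI used cells thinned at random to 4000 UMIs (seed 1), and tuft-like cells were kept cells at or above 5 UMIs per 10000 of their marker genes.

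With 1 library per condition no test was made. The rule for the cells, the 27 gene lists and the alternatives were chosen with earlier results of these data known. Named genes were all cortical list genes, from each other list the 2 with most UMIs and the 2 with the largest ratio, the 10 highest and 10 lowest ratios, the 20 highest over other kept cells and the 10 widest spreads. Other genes named were chosen after their values were seen, and a few listed genes are not reported here. The ratio computation was tested on simulated counts of 5542 genes with 200 changed 2-fold in the comparison of irradiated and control cTECs, of which all 200 had the right sign and 198 passed 1.5-fold, as did 12 of 5342 unchanged genes. These counts were Poisson draws of summed UMIs without spread among cells or mice. They check the computation and give no error rate for the real genes. The alternatives changed the limits, the scaling, the added UMIs, the minimum UMIs, the fold and the thinning. Coordinates are from GENCODE M21. Python 3.11.15, numpy, scipy, pandas and matplotlib were used.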

Additional observations from a re-analysis of the deposited data

Results flagged for a closer look

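The values of 4 cortical genes were above 0 in cTECs and below 0 in other kept cells, with counting ranges clear of 0 on both sides. The difference between the cell groups was not tested, and there was 1 library per condition. Other kept cells pool many TEC types, and their mix differed between the libraries. The share of tuft-like cells among kept cells, for example, had a log2 ratio of irradiated over control of -0.66. The study also reports changed proportions of medullary subsets and proposes a decrease of one that expresses Ccl25. The part of this mix in the values of other kept cells was not tested. Ccl25 had a log2 ratio of irradiated over control of 0.29 in cTECs and -0.43 in other kept cells. Tbata had 0.45 and -0.13. Krt8 had 0.05 and -0.05, and Krt18 had 0.05 and -0.20. Within cTECs the signs did not hold at a sum of Psmb11 and Prss16 of 60 or more per 10000, save for Tbata. The control and irradiated levels in those cells were 74.1 and 71.97 for Ccl25. Krt8 was at 56.8 and 52.1, Krt18 at 77.6 and 70.5 and Tbata at 144 and 149. With a sum of at least 30, Krt8 had a log2 ratio of 0.0029 and Krt18 of 0.00016. Under the sample labels all of these signs reverse.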

How the results depend on the processing

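Over 162 results, 1881 of 2241 values under alternatives stayed within the counting range or margin of the main value, 353 moved beyond it and 7 reversed. The log2 ratio of the share of cTECs stayed within its range under each of the 6 other limits on cells. The number of genes higher and lower by 1.5-fold or more, 77 and 108, was 337 and 520 with at least 50 UMIs, 11 and 26 with at least 1000 UMIs, and 16 and 32 at 2-fold. The median of the stress list, -0.78, was -0.67 in cells with a sum of Psmb11 and Prss16 of at least 30 and -0.62 with at least 1000 UMIs, and that of the p53 list, 0.39, was 0.19 with at least 1000 UMIs. The ranges of that sum were set after seeing the data. Within them, the stress median was -0.89, -0.47 and -0.39 from the lowest to the highest range. The p53 median was 0.020 in the lowest and 0.25 in the highest, and the marker median was -0.052 in the highest. The marker list includes Psmb11 and Prss16, which chose the cells and define the ranges. Its median within a range is therefore partly fixed by the split and is only a description. The sign of 6 genes past 1.5-fold reversed in single settings, and genes under that fold, such as Id2, could change sign without being counted as reversed. Reg3g was 1.69 with a limit of 10 for Psmb11 and Prss16 and 0.95 in the highest range. Fabp4 was 0.52 without the highest 10% of cells by total UMIs. Dusp28 was -0.27 in the lowest range, Zmat3 -0.0067 in the middle range, and Psors1c2 and Ctsh were 4.81 and 0.11 in the highest. The causes were not tested. No paired analysis was possible because each condition has 1 library and the result comes from no test. The number of cTECs, 114 in the control library, limits genes of low level most.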
